A study of Mus musculus with 67 samples.

Results

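Chaperones are proteins that help other proteins fold, assemble or refold after stress. The genes described here code for chaperones and co-chaperones of the cytosol and of mitochondria, together with the heat shock factor Hsf1, the small heat shock protein Hspb1 and the co-chaperone Bag3. They were chosen by gene symbol, with earlier results of these data known, and comprise 36 of the 35405 genes shared by the B and T cell tables. The shares of all genes given below are therefore a description and not a test of the members as a set. All 36 were found. After the filter on low counts, 35 were tested in each B cell set, 34 in naive T cells and 33 in T cells of immunized mice. Hspb1 passed the filter in no set, Hspa1a in neither T cell set and Hspa1b not in the T cells of immunized mice.

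RNA was measured in 60 libraries of B cells and CD4+ T cells from C57BL/6 mice, purified by depleting other cells from spleen and from inguinal and brachial lymph nodes. The donors had been immunized with a MOG peptide, a piece of a myelin protein, to induce experimental autoimmune encephalomyelitis (EAE), or were naive. Each of the 4 sets (EAE B, naive B, EAE T and naive T cells) had 5 arms of 3 libraries, numbered 1 to 3. In 4 arms the cells received for 18 h latex beads that carried an antigen receptor antibody (anti-CD3 in T cells and anti-IgM/IgG in B cells) and also anti-Btla or control immunoglobulin (CtrlIg), each with or without soluble interferon beta (IFNb). The fifth arm was unstimulated, and the sources used here do not say whether those cells were also kept in culture for that time. All stimulated arms thus share the antigen receptor antibody, and anti-Btla differs from CtrlIg only in the second antibody on the bead. Btla is an inhibitory receptor of lymphocytes, and this anti-Btla antibody keeps its ligand Hvem from binding and also triggers Btla signaling. The study's methods give an age of 8 to 12 weeks and both sexes for its mice as a whole, and the sources used here do not say which library came from which sex or whether animals were pooled.

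Depth was 6.7 to 62.0 M (mega) counts in B cell libraries and 7.3 to 34.0 M in T cell libraries. All anti-Btla libraries of EAE B cells (6.7 to 29.5 M) were shallower than the CtrlIg libraries (36.2 to 62.0 M), whereas in naive B cells the depths overlapped (24.3 to 32.8 M with anti-Btla and 29.1 to 42.2 M with CtrlIg). In EAE B cells library 1 of every arm had the highest summed level of the members. The labelled cell types were checked against marker genes. The summed level of Cd79a, Cd79b, Ms4a1, Pax5 and Cd22 was 3038 to 5853 CPM (counts scaled to the same library total) in B cell libraries and at most 163.3 CPM in T cell libraries, and that of Cd3d, Cd3e, Cd3g, Cd5, Lck and Cd4 was 1331 to 2198 CPM in T cell libraries and at most 28.9 CPM in B cell libraries. The CD8 genes Cd8a and Cd8b1 summed to 13.2 to 26.2 CPM in EAE T cells, but to 501 to 1096 CPM in naive T cells, although both are labelled CD4+, while Cd4 itself was at 505 to 753 CPM in EAE and 308 to 589 CPM in naive T cells.

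Chaperones work in relays. Hsp70 proteins bind short unfolded stretches and are driven by J-domain proteins, and Hsp90 takes over late folding steps of kinases and steroid receptors with its co-chaperones. The TRiC (or CCT) ring, built from the products of Tcp1 and the Cct genes, encloses actin, tubulin and other proteins that it receives in part from prefoldin. In mitochondria, the chamber of Hspd1 (Hsp60) and its lid Hspe1 (Hsp10) folds imported proteins, and Hspa9 (mortalin) pulls them across the inner membrane with the help of Grpel1. Lymphocytes that are activated through their antigen receptor grow and divide, and their need for protein folding rises with protein synthesis. Hsf1 is the factor that switches on many chaperone genes after heat or other protein-damaging stress by binding repeats of the unit GAA and its complement TTC.

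Promoter sequence shows which members carry such repeats. The 250 bases upstream of the start were searched on both strands in RefSeq's promoters of GRCm38.p6, which cover 27025 genes and 29 of the members. A 3-unit motif (GAA, TTC and GAA, or TTC, GAA and TTC, with any 2 bases between units) was in 0.514% of all promoters and, among the members, in those of Hspd1 and Hspe1. These 2 genes face away from each other, so their promoters share the same site. The shorter GAANNTTC was in 7.73% of all promoters and in 8 members (Cct2, Hspd1, Hspe1, Hspb1, Hspa1a, Hspa1b, Dnaja1 and Fkbp4), and TTCNNGAA in 8.11% of all and in 5 members (Cct5, Hspd1, Hspe1, Hsph1 and Cdc37). These counts overlap, because each 3-unit match holds both shorter ones. CACGTG, a motif of Myc and related factors, was in 6.86% of all promoters and in 2 members (Hspd1 and Hsph1), and CCAAT in 37.5% of all and in 14 members. A match describes the letters only. The sites below are examples, with the matching stretch of repeats in capitals, on the minus strand of GRCm38.p6. They are the shared site of Hspd1 and Hspe1 (chr1:55088053-55088082) and those of Hsph1 (chr5:149636351-149636380) and Cct5 (chr15:31601862-31601891). Also shown are those of Hspa1a (chr17:34972223-34972290) and Hspa1b (chr17:34959305-34959372), a barely detected pair with nearly identical upstream bases.
Hspd1-Hspe1: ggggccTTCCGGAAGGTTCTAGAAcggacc
Hsph1: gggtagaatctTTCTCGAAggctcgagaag
Cct5: acagcggccgaTTCCAGAAgctactctgcg
Hspa1a: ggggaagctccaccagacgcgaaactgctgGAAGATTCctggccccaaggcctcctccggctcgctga
Hspa1b: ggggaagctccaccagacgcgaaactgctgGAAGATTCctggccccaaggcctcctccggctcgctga
The last 2 stretches are the same letter for letter, and 247 of the 250 upstream bases of these genes are identical. The sites of Hspd1 and Hspe1, Hsph1 and Cct5 overlap an exon of a listed transcript of any gene, and those of Hspa1a and Hspa1b lie outside exons. The Cct5 stretch lies beyond the listed end of Cct5 itself (chr15:31601804), so the exon there belongs to another gene.

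The first question was whether anti-Btla altered chaperone transcripts in B cells stimulated through their receptor. Nearly all fell. Calls rest on edgeR's quasi-likelihood test across all genes, with the p adjusted by Benjamini and Hochberg's method and a threshold of 0.05, and changes are given on the log2 scale with their standard error (SE). In EAE B cells 29 of 35 members tested were lower with anti-Btla than with CtrlIg and 0 were higher, where 16.5% of all genes tested were lower. In naive B cells 30 of 35 were lower and 0 were higher, where 19.8% of all genes tested were lower. Without the 5 EAE B libraries numbered 1, a setting chosen after seeing the data, 28 members were called in EAE B cells. The median change of the members was -0.64 in EAE and -0.60 in naive B cells, against 0.04 and 0.01 for all genes. Together the 36 genes took 10156 ± 1125 CPM (1.02% of all counts) with anti-Btla and 16187 ± 1197 CPM (1.62%) with CtrlIg in EAE B cells, and 9208 ± 189 CPM (0.921%) with anti-Btla and 14486 ± 340 CPM (1.45%) with CtrlIg in naive B cells (SD, n = 3 each). In bulk RNA, fewer cells of a type and less RNA per cell cannot be told apart. The summed B cell markers moved the other way, at 4308 to 4633 CPM with anti-Btla and 3053 to 3528 CPM with CtrlIg in EAE cells and at 4104 to 4823 and 3402 to 3806 CPM in naive cells, and their part in the result was not tested.

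**Figure D1:**
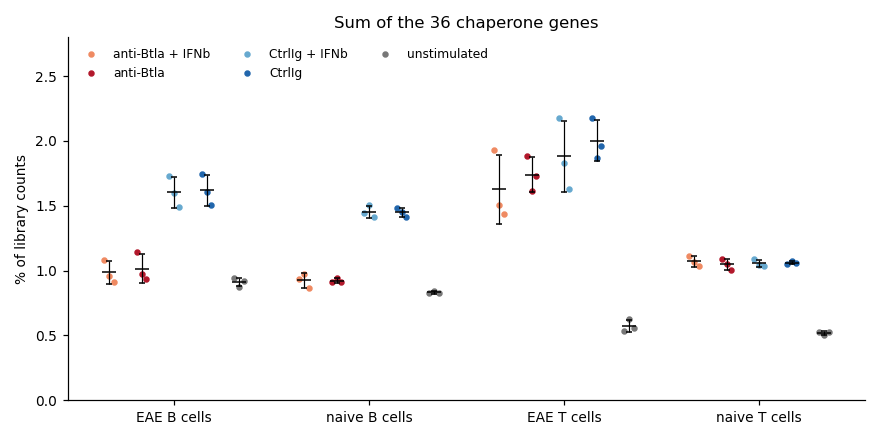
Summed level of the 36 chaperone genes in each library, in percent of the library's counts, by set and arm, with means and SD of 3 libraries as black bars. Without IFNb, EAE B cell libraries lay at 0.931 to 1.14% with anti-Btla and 1.51 to 1.75% with CtrlIg, and naive T cell libraries at 1.01 to 1.09% and 1.05 to 1.07%.

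The largest change was that of a mitochondrial member. Hspd1 (chr1:55077835-55088243, minus strand), the Hsp60 chamber, measured 565, 467 and 441 CPM with anti-Btla in EAE B cells, against 1148, 1025 and 899 CPM with CtrlIg. Naive B cells had 421, 472 and 448 CPM with anti-Btla and 882, 869 and 874 CPM with CtrlIg. The arms did not overlap in either state, and the changes were -1.14 ± 0.09 (adjusted p = 1.69e-06, edgeR) and -1.06 ± 0.06 (adjusted p = 1.09e-08, edgeR). Its lid Hspe1 changed by -0.87 ± 0.07 in EAE and -0.92 ± 0.08 in naive cells, and Hspa9 by -0.89 ± 0.08 and -0.89 ± 0.06. The Hsp90 homolog Trap1 (-0.39 ± 0.07 and -0.42 ± 0.05) and the Hspa9 exchange factor Grpel1 (-0.36 ± 0.08 and -0.41 ± 0.07) were called with smaller changes.

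All 8 genes of the TRiC ring fell in both states. Their sum measured 2326, 2049 and 1988 CPM with anti-Btla in EAE B cells, against 3523, 3219 and 3005 CPM with CtrlIg. It measured, in naive B cells, 1970, 2077 and 2046 CPM with anti-Btla and 3094, 3063 and 3039 CPM with CtrlIg. The 8 changes were close together, between -0.91 (Cct6a) and -0.58 (Cct5) in EAE cells and between -0.85 (Cct6a) and -0.60 (Cct4) in naive cells. Cct7 (chr6:85451514-85468475, plus strand), the ring gene with the smallest p in naive cells, measured 121.1, 106.7 and 101.4 CPM with anti-Btla and 178.4, 154.7 and 157.1 CPM with CtrlIg in EAE cells. In naive cells Cct7 measured 97.7, 99.9 and 98.0 CPM with anti-Btla and 164.8, 172.9 and 152.6 CPM with CtrlIg (-0.82 ± 0.05, adjusted p = 4.44e-08, edgeR). No anti-Btla library reached a CtrlIg library. On the per-length TPM scale the ring genes kept unequal levels in every arm of the study, with Cct6a highest throughout and Cct7 lowest except in both unstimulated T cell groups, where Cct3 was lowest. Cct6a was 5.42 to 8.14 times the lowest ring gene.

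The prefoldin gene Pfdn4 (chr2:170496428-170519123, plus strand) was low and fell in both states. It measured 9.64, 10.03 and 8.77 CPM with anti-Btla in EAE B cells, against 15.5, 15.4 and 12.5 CPM with CtrlIg. The naive B cell libraries gave 9.57, 9.75 and 9.29 CPM with anti-Btla and 12.7, 13.4 and 14.3 CPM with CtrlIg. The groups did not overlap, with changes of -0.71 ± 0.12 and -0.59 ± 0.10. Pfdn2 fell in naive cells (-0.40 ± 0.08, adjusted p = 0.00103, edgeR) and had -0.46 ± 0.17 in EAE cells, which missed the threshold (adjusted p = 0.0591, edgeR).

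Among Hsp90 and its co-chaperones, 7 of 8 genes fell in each state. Hsp90ab1 (chr17:45567775-45573271, minus strand), the constitutive Hsp90, had the highest TPM of all members in every B cell group. It measured 3045, 2433 and 2224 CPM with anti-Btla in EAE B cells, against 4395, 3970 and 3894 CPM with CtrlIg. Naive B cells gave 2235, 2142 and 2100 CPM with anti-Btla and 3662, 3571 and 3336 CPM with CtrlIg. The change was -0.76 ± 0.07 in EAE and -0.80 ± 0.04 in naive cells, with no overlap. The inducible Hsp90aa1 fell by 0.98 ± 0.08 and 0.93 ± 0.06 on the log2 scale. Of the co-chaperones, Stip1, which links Hsp70 to Hsp90, had -0.71 ± 0.08 in EAE and -0.73 ± 0.07 in naive cells. Ahsa1, the activator of the Hsp90 ATPase, had -0.62 ± 0.09 and -0.54 ± 0.06, and the immunophilin Fkbp4 had -0.64 ± 0.13 and -0.81 ± 0.08. The p23 protein Ptges3 (-0.76 ± 0.10 and -0.66 ± 0.08) and Chordc1 (-0.51 ± 0.09 and -0.45 ± 0.06) were called too. Cdc37, which brings kinases to Hsp90, was the exception, at -0.11 ± 0.09 in EAE and -0.16 ± 0.06 in naive cells (adjusted p = 0.354 and 0.069, edgeR).

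Of the cytosolic Hsp70 and Hsp110 genes, the constitutive Hspa8 (chr9:40800984-40810087, plus strand) measured 1859, 1388 and 1354 CPM with anti-Btla in EAE B cells, against 2592, 2326 and 2136 CPM with CtrlIg. In B cells of naive mice it measured 1304, 1265 and 1219 CPM with anti-Btla and 2106, 1882 and 1892 CPM with CtrlIg. The lower arm was apart in both states, and the changes were -0.71 ± 0.08 and -0.72 ± 0.05. The Hsp110 gene Hsph1, a nucleotide exchange factor of Hsp70, fell by 0.90 ± 0.11 and 0.83 ± 0.06 on the log2 scale, Hspa4 by 0.66 ± 0.09 and 0.58 ± 0.05, and Hspa14 by 0.35 ± 0.06 and 0.33 ± 0.06. The call of Hspa14 in naive cells was lost with a length offset (-0.15, adjusted p = 0.192, edgeR), and its mean TPM there was 36.8 with anti-Btla and 38.1 with CtrlIg.

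All 4 J-domain genes fell in both states. Dnaja2 (chr8:85537633-85555344, minus strand), a partner of Hspa8, measured 162.4, 150.1 and 141.4 CPM with anti-Btla in EAE B cells, against 221.4, 211.3 and 191.6 CPM with CtrlIg. Its naive B cell libraries measured 132.6, 153.9 and 150.2 CPM with anti-Btla and 186.9, 190.8 and 193.7 CPM with CtrlIg. The change was -0.54 ± 0.07 and -0.48 ± 0.06, with no overlap. Dnaja1 had -0.59 ± 0.10 and -0.46 ± 0.06, Dnajb1 -0.54 ± 0.10 and -0.35 ± 0.09, and Dnajc2, a J-domain protein that works at the ribosome, -0.58 ± 0.07 and -0.47 ± 0.06.

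**Figure D2:**
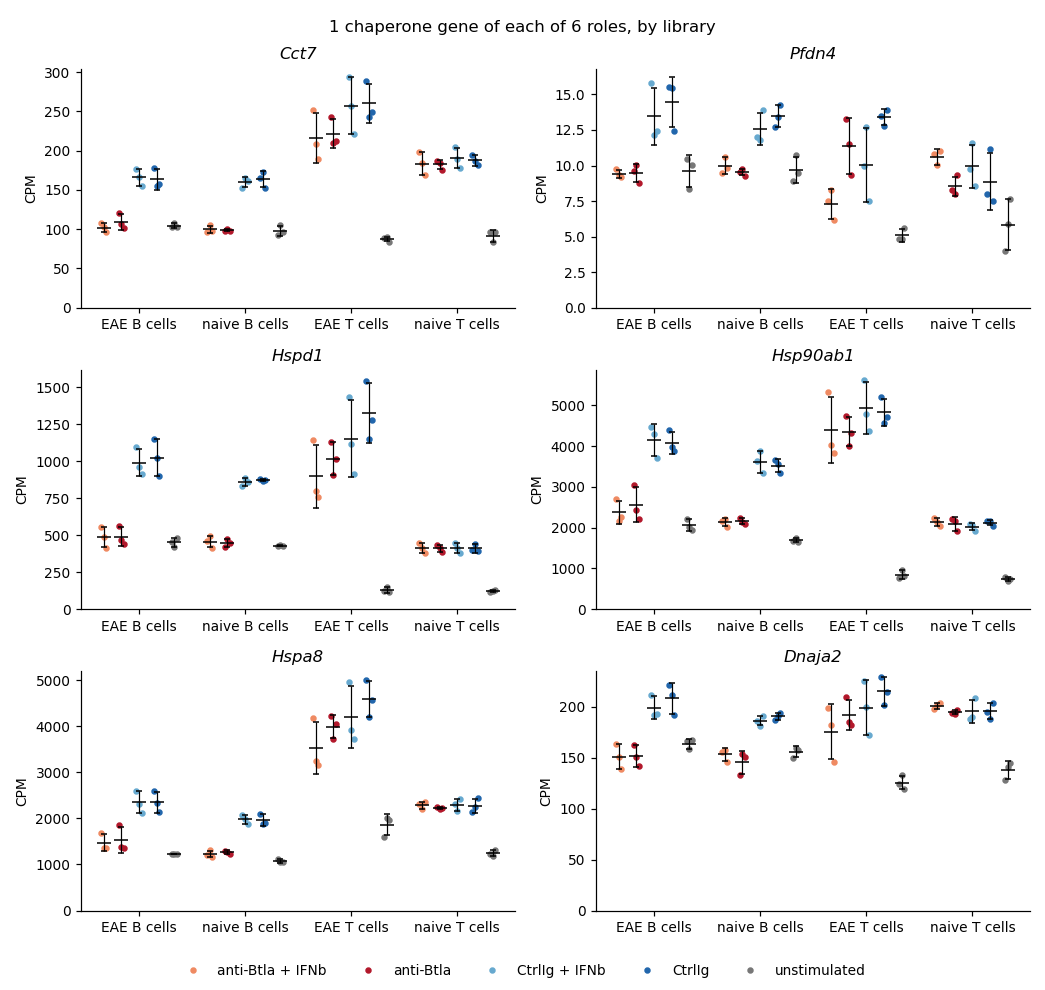
CPM in each library of 6 genes, the member of each of 6 roles with the smallest p for anti-Btla in naive B cells, by set and arm, with means and SD of 3 libraries as black bars. In both B cell sets the anti-Btla libraries lie below the CtrlIg libraries, for Hspd1 at 421 to 565 CPM against 869 to 1148 CPM.

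Cdc37, Hsf1, Bag3, Hspa1a and Hspa1b were not called with anti-Btla in either B cell state. Hsf1 measured 58.5 to 70.3 CPM with anti-Btla and 50.7 to 65.1 CPM with CtrlIg in EAE cells, and 61.3 to 65.7 and 57.9 to 63.7 CPM in naive cells (changes of 0.03 ± 0.09 and 0.00 ± 0.06). Bag3, an Hsp70 co-chaperone of stressed cells, was low in B cells. It measured 2.24, 1.05 and 1.02 CPM with anti-Btla and 2.40, 1.85 and 1.71 CPM with CtrlIg in EAE cells (-0.51 ± 0.22, adjusted p = 0.0948, edgeR), and 1.72, 1.56 and 1.86 CPM with anti-Btla and 2.26, 1.92 and 2.03 CPM with CtrlIg in naive cells (-0.36 ± 0.23, adjusted p = 0.25, edgeR). The stress-inducible Hsp70 genes Hspa1a and Hspa1b were at most 0.767 and 1.24 CPM in any library of the study, and Hspb1 was at most 0.310 CPM. Bag3 overlapped between the arms in EAE but not in naive cells, and the 3 heat-inducible genes were near 0 in every arm.

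The pattern was also present with IFNb in both arms, although edgeR called 0% of all genes for IFNb itself in both B cell sets. With IFNb, 31 of 35 members were lower with anti-Btla than with CtrlIg in EAE B cells (17.4% of all genes were lower) and 31 of 35 in naive B cells (17.6% of all genes), with medians of -0.69 and -0.57. No member was higher. Besides Bag3 and Cdc37 below, some calls were lost in at least 1 alternative. These were Grpel1, Hspa14 and Pfdn4 in naive cells and Hspa14, Dnaja1, Dnajb1, Chordc1, Pfdn2 and Pfdn4 in EAE cells. The arms with IFNb share no library with the arms without IFNb, but equal numbers were taken as the same mice, so they add no further animals. Hspd1 measured 554, 488 and 416 CPM with anti-Btla and IFNb in EAE cells, against 1094, 961 and 916 CPM with CtrlIg and IFNb, and 458, 495 and 417 CPM against 830, 885 and 859 CPM in naive cells. Bag3 passed here in both states, at -0.88 ± 0.20 in EAE (adjusted p = 0.00437, edgeR) and -0.80 ± 0.23 in naive cells (adjusted p = 0.0162, edgeR), and so did Cdc37, at -0.27 ± 0.08 and -0.26 ± 0.06. Each of these 4 calls was lost in at least 1 alternative. In EAE cells those of Bag3 (adjusted p = 0.0769, edgeR) and Cdc37 (adjusted p = 0.158, edgeR) were lost without the replicate block, and that of Cdc37 also without library 1 or 2 of either arm (adjusted p = 0.0739 to 0.115, edgeR). In naive cells leaving out library 2 of the CtrlIg arm ended both (adjusted p = 0.131 for Bag3 and 0.0796 for Cdc37, edgeR), and leaving out library 2 of the anti-Btla arm ended that of Bag3 (adjusted p = 0.109, edgeR). Grpel1 in EAE cells (-0.21 ± 0.08, adjusted p = 0.0598, edgeR), Dnajb1 in naive cells (-0.23 ± 0.09, adjusted p = 0.0598, edgeR) and, in both, Hsf1, Hspa1a and Hspa1b were not called.

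No member passed the test for IFNb alone. Between CtrlIg with IFNb and CtrlIg without it, edgeR called 0 members in each of the 4 sets, with 2 members at an unadjusted p under 0.05 in EAE B, 0 in naive B, 4 in EAE T and 1 in naive T cells, and DESeq2 called 0 as well. The background was also low, at 0% of all genes in EAE B, 0% in naive B, 0.158% in EAE T and 0% in naive T cells. Changes below 0 were seen for 29 of 35 members in EAE B and 20 of 35 in naive B cells. In T cells they were seen for 23 of 33 in EAE and 18 of 34 in naive cells. The medians were -0.05 in EAE B, -0.01 in naive B and -0.05 in EAE T cells, and near 0 in naive T cells.

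The effect of anti-Btla on the members was not distinguishable between immunized and naive B cells. A fit of both sets called 0 of 35 members for a difference between the anti-Btla effects (EAE minus naive), where 0% of all genes were called, with 0 members at an unadjusted p under 0.05 and 0 called by DESeq2. The differences ran from -0.22 ± 0.14 (Dnajb1) to 0.14 ± 0.16 (Fkbp4) apart from the barely detected Hspa1a and Hspa1b.

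In T cells the members did not pass the test with anti-Btla. In EAE T cells edgeR called 0 of 33 members (0.0686% of all genes were called), with 6 members under an unadjusted p of 0.05 and 0 in DESeq2. All but Dnajb1 were below 0 there, 32 of 33, with a median of -0.15 against 0.00 for all genes. Hspd1 measured 1128, 906 and 1015 CPM with anti-Btla in EAE T cells and 1545, 1154 and 1277 CPM with CtrlIg, so that every anti-Btla library was below every CtrlIg library, by -0.35 ± 0.13 (adjusted p = 0.401, edgeR). The share of counts from mitochondrially encoded genes was 2.96 to 3.89% with anti-Btla and 1.27 to 2.81% with CtrlIg in these libraries, and its part was not tested. In naive T cells edgeR called 0 of 34 members (0% of all genes), 1 was under an unadjusted p of 0.05, DESeq2 called 0 and the median was -0.03. Hspd1 measured 432, 410 and 388 CPM with anti-Btla there and 399, 442 and 390 CPM with CtrlIg, and the groups overlapped. With IFNb in both arms edgeR again called 0 members in EAE T (0% of all genes, 9 members at an unadjusted p under 0.05, median -0.17) and in naive T cells (0.0132% of all genes, 1 member at an unadjusted p under 0.05, median 0.02), and DESeq2 called 0. The difference between the anti-Btla effects of EAE and naive T cells was called for 0 of 34 members (0.244% of all genes), 2 were under an unadjusted p of 0.05 and DESeq2 called 0.

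**Figure D3:**
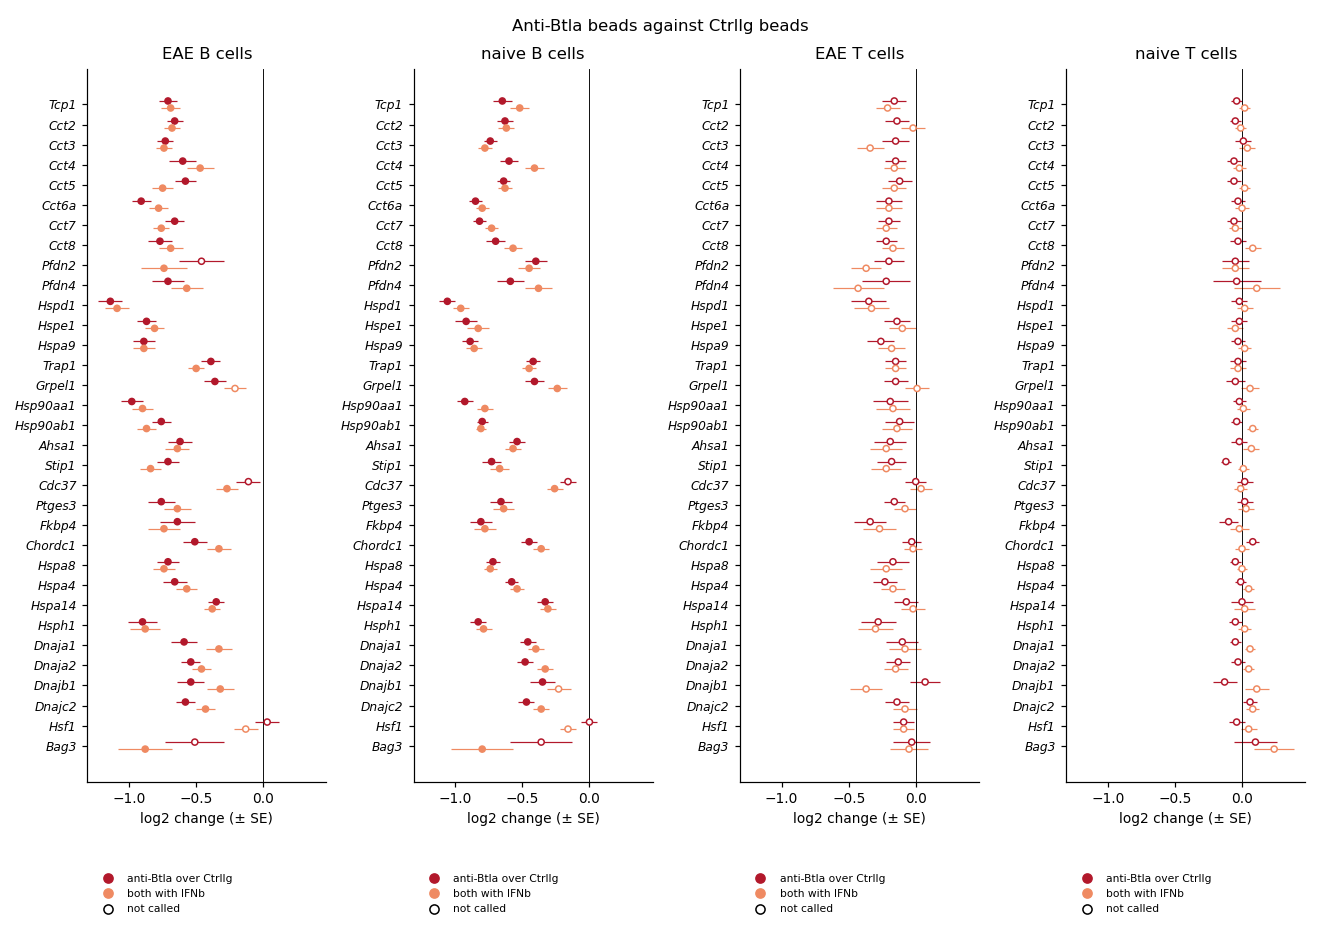
Log2 change (± SE) between anti-Btla and CtrlIg beads for 33 members in each set, without IFNb (red) and with IFNb in both arms (orange), and open circles for genes that were not called. In B cells the called members lie between -1.14 and -0.24, whereas in T cells 0 members were called.

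The second question was how the same genes responded to stimulation itself, from CtrlIg beads against unstimulated cells. These comparisons use the same CtrlIg libraries as the anti-Btla comparisons, so the values of both are given side by side and not as separate support. Most members rose in all 4 sets. In EAE B cells 31 of 35 were higher (21% of all genes) and 0 lower, and in naive B cells 31 of 35 (22.7% of all genes) and 0 lower. In EAE T cells 31 of 33 were higher (31.7% of all genes) and 1 lower (31.3% of all genes), and in naive T cells 30 of 34 were higher (27.1% of all genes) and 1 lower (23% of all genes). The median change was 0.75 in EAE B, 0.80 in naive B, 1.56 in EAE T and 0.73 in naive T cells, against -0.05, -0.02, -0.07 and -0.02 for all genes. The members together took 16187 ± 1197 CPM with CtrlIg and 9117 ± 333 CPM unstimulated in EAE B, 14486 ± 340 and 8323 ± 120 CPM in naive B, 20028 ± 1584 and 5737 ± 482 CPM in EAE T, and 10606 ± 98.1 and 5185 ± 150 CPM in naive T cells (SD, n = 3 each).

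In B cells the values of Hspd1 in all 3 arms stand side by side as follows. It measured 1148, 1025 and 899 CPM with CtrlIg and 453, 420 and 481 CPM unstimulated in EAE B cells, beside the 565, 467 and 441 CPM of the anti-Btla arm. Levels in naive B cells were 882, 869 and 874 CPM with CtrlIg and 425, 434 and 428 CPM unstimulated, beside 421, 472 and 448 CPM with anti-Btla. The CtrlIg arm was thus apart from both of the others. The activation change of Hspd1 was 1.30 ± 0.09 and 1.14 ± 0.06. Hspe1 had 1.40 ± 0.07 and 1.43 ± 0.08, Hsp90ab1 1.12 ± 0.07 and 1.16 ± 0.04, and the ring genes lay between 0.77 (Cct7) and 1.01 (Cct6a) in EAE and between 0.81 (Tcp1) and 0.94 (Cct6a) in naive cells. Bag3, although at 1 to 3 CPM, rose with CtrlIg in EAE (0.74 ± 0.19, adjusted p = 0.00756, edgeR, but 0.106 without the replicate block) and in naive B cells (0.90 ± 0.23, adjusted p = 0.00597, edgeR). In EAE B cells Grpel1, Dnajb1 and Pfdn2 also lost their calls without the replicate block (adjusted p = 0.111, 0.113 and 0.092, edgeR). Each of these 3 lost its call without at least 1 library too. In naive B cells Hspa14 lost its call with a length offset (adjusted p = 0.261, edgeR). Cdc37 lost its call there without unstimulated library 1 (adjusted p = 0.122, edgeR). Hsf1, Hspa1a and Hspa1b were not called in either state. Cdc37 in EAE (0.21 ± 0.08, adjusted p = 0.0615, edgeR) and Dnajb1 in naive cells (0.11 ± 0.09, adjusted p = 0.325, edgeR) were not called either. The difference between the activation effects of EAE and naive B cells was called for 0 of 35 members (0.0865% of all genes), 0 were under an unadjusted p of 0.05 and DESeq2 called 0.

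T cells of immunized mice had the largest changes of the members in the study. Hspd1 measured 1545, 1154 and 1277 CPM with CtrlIg and 124, 151 and 115 CPM unstimulated in EAE T cells, a change of 3.38 ± 0.14 (10.4-fold, adjusted p = 3.33e-11, edgeR). In naive T cells it measured 399, 442 and 390 CPM with CtrlIg and 118.5, 123.3 and 130.2 CPM unstimulated (1.78 ± 0.06, adjusted p = 8.07e-14, edgeR). The unstimulated levels overlapped between EAE and naive cells (0.14 ± 0.11, adjusted p = 0.348, edgeR). Hsp90ab1 measured 5206, 4568 and 4727 CPM with CtrlIg and 771, 968 and 805 CPM unstimulated in EAE T cells (2.55 ± 0.12), and 2168, 2156 and 2048 CPM against 794, 695 and 733 CPM in naive T cells (1.58 ± 0.04). The ring sum measured 3856, 3353 and 3445 CPM with CtrlIg and 1073, 1136 and 980 CPM unstimulated in EAE T cells, and 2186, 2186 and 2113 CPM against 1145, 1087 and 1152 CPM in naive T cells. Stimulation separated the groups fully in both states for these 3 measures. Hsp90aa1 (2.54 ± 0.14 and 1.83 ± 0.05), Hsph1 (2.22 ± 0.14 and 1.20 ± 0.05) and Stip1 (2.09 ± 0.11 and 1.39 ± 0.05) also ranked among the larger changes in EAE and naive T cells. In naive T cells the largest change of all members was that of Hspa9 (2.18). It measured 485, 505 and 476 CPM with CtrlIg and 112, 107 and 116 CPM unstimulated there. In EAE T cells Hspa9 measured 539, 446 and 498 CPM with CtrlIg and 124, 130 and 132 CPM unstimulated.

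For Cct7, Pfdn4, Hspa8 and Dnaja2 the T cell values were as follows. Cct7 measured 289, 243 and 250 CPM with CtrlIg and 88.7, 89.98 and 84.3 CPM unstimulated in EAE T cells, and 195, 187 and 181 CPM against 96.2, 83.2 and 96.0 CPM in naive T cells. Pfdn4 measured 13.5, 12.8 and 13.9 CPM with CtrlIg and 4.81, 4.83 and 5.63 CPM unstimulated in EAE T cells, and 7.97, 11.1 and 7.48 CPM against 4.02, 5.90 and 7.62 CPM in naive T cells. Of these 2 genes only Pfdn4 overlapped between arms, in naive T cells, where it passed (0.58 ± 0.19, adjusted p = 0.0172, edgeR) but not without CtrlIg library 2 or without unstimulated library 1 or 2 (adjusted p = 0.0835 to 0.141, edgeR). Hspa8 measured 4994, 4202 and 4564 CPM with CtrlIg and 1595, 2018 and 1972 CPM unstimulated in EAE T cells, and 2136, 2249 and 2436 CPM against 1234, 1189 and 1316 CPM in naive T cells. Dnaja2 measured 229.1, 201.1 and 214.7 CPM with CtrlIg and 123.9, 132.5 and 119.6 CPM unstimulated in EAE T cells, and 195.1, 187.9 and 203.7 CPM against 127.7, 140.9 and 144.7 CPM in naive T cells. Both genes were apart between arms in both states.

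The difference between the activation effects of EAE and naive T cells was itself tested. It was higher in EAE for 29 of 34 members (20.8% of all genes) and lower for 1 (17% of all genes), with a median of 0.79 against -0.03 for all genes. The largest differences were those of Hspe1 (1.74 ± 0.13, adjusted p = 2.48e-10, edgeR), Hspd1 (1.67 ± 0.16, adjusted p = 1.21e-08, edgeR) and Fkbp4 (1.61 ± 0.16, adjusted p = 1.32e-08, edgeR), and all 8 ring genes were called, from 0.57 ± 0.10 (Cct2) to 1.13 ± 0.10 (Cct4). Hsf1 was the member with a lower effect in EAE (-0.32 ± 0.10, adjusted p = 0.0161, edgeR), a call lost without the replicate block (adjusted p = 0.064, edgeR), with a length offset (adjusted p = 0.161, edgeR) and without 1 of 4 libraries (adjusted p = 0.0632 to 0.105, edgeR). Hspa8, Dnaja2, Chordc1 and Pfdn4 also lost their calls in at least 1 alternative. With a length offset the difference was only 0.04 for Dnaja2 and 0.17 for Chordc1. Hspa9 (-0.14 ± 0.12), Grpel1 (0.19 ± 0.11), Bag3 (0.27 ± 0.19) and Hspa1b were not called. The naive T cell libraries held CD8 transcripts as given above. The summed myeloid markers were 29.1 to 84.1 CPM with CtrlIg and 137 to 377 CPM unstimulated in EAE T cells, and 18.5 to 41.5 and 16.5 to 27.1 CPM in naive T cells. Mitochondrially encoded genes took 1.27 to 2.81% of counts with CtrlIg and 5.28 to 7.00% unstimulated in EAE T cells, and 3.83 to 4.15% and 4.54 to 4.82% in naive T cells. The part of these values in the difference was not tested.

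**Figure D4:**
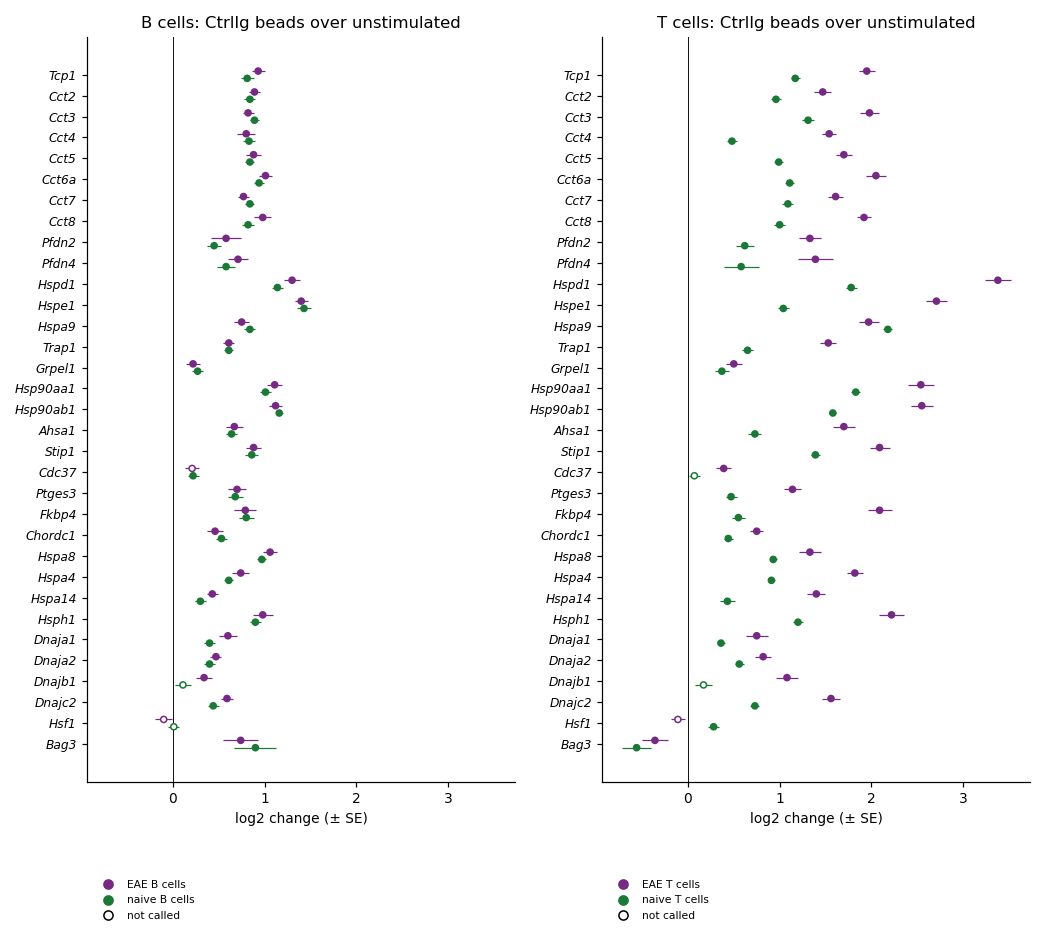
Log2 change (± SE) between CtrlIg beads and unstimulated cells for 33 members in EAE (purple) and naive (green) cells, B cells at left and T cells at right, with open circles for genes that were not called. EAE T cells reach 3.38 for Hspd1 and lie right of naive T cells for most members, whereas the difference was not called for Hspa9, Grpel1 and Bag3 and was -0.32 for Hsf1, a call lost when 1 of 4 libraries was left out.

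Bag3 and Hsf1 did not follow the other members in T cells. Bag3 fell with CtrlIg in EAE T cells, measuring 8.74, 9.42 and 10.4 CPM against 12.8, 11.8 and 13.1 CPM unstimulated (-0.36 ± 0.14, adjusted p = 0.0348, edgeR), a call that was lost when any 1 of these 6 libraries was left out (adjusted p = 0.0631 to 0.31, edgeR). It also fell in naive T cells, with 4.66, 4.85 and 4.61 CPM against 6.62, 8.64 and 6.73 CPM (-0.56 ± 0.16, adjusted p = 0.00549, edgeR). The CtrlIg libraries were below the unstimulated ones in both states, the opposite order to B cells, and this contrast between cell types was not tested. Hsf1 rose in naive T cells (0.28 ± 0.06, adjusted p = 0.00124, edgeR, but 0.0622 with a length offset), with 72.5, 71.2 and 72.0 CPM against 62.2, 61.0 and 62.3 CPM, and was at -0.11 ± 0.08 in EAE T cells. Dnajb1 (0.17 ± 0.09) and Cdc37 (0.07 ± 0.06) were not called in naive T cells and rose in EAE T cells (1.08 ± 0.12 and 0.39 ± 0.08).

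The third question was how the members differed at rest. Between unstimulated EAE and naive B cells edgeR called 0 of 34 members (0.0492% of all genes), 4 were under an unadjusted p of 0.05 and DESeq2 called 0. Between unstimulated EAE and naive T cells 7 of 33 were higher (18.6% of all genes) and 3 were lower (17% of all genes), a share of called members close to the background. The J-domain gene Dnajb1 was the most different, at 24.96, 22.8 and 23.2 CPM in EAE and 60.9, 61.7 and 56.6 CPM in naive cells (-1.26 ± 0.08, adjusted p = 1.4e-05, edgeR). Hspe1 was lower as well, at 45.0, 42.4 and 33.3 CPM in EAE and 76.7, 77.9 and 83.7 CPM in naive cells (-0.92 ± 0.12, adjusted p = 0.000498, edgeR), and so was Cct4 (-0.37 ± 0.07). None of these 3 genes overlapped between the states. Higher in EAE were Bag3 (0.86 ± 0.16), Hspa8 (0.66 ± 0.10), Hsp90aa1 (0.52 ± 0.14), Stip1 (0.33 ± 0.11), Hsf1 (0.29 ± 0.08), Hspa9 (0.27 ± 0.07) and Tcp1 (0.27 ± 0.08), of which Tcp1, Hspa9, Hsp90aa1, Stip1 and Hsf1 lost their call when 1 library was left out. The CD8 genes summed to 19.5 to 26.2 CPM in unstimulated EAE and 926 to 1096 CPM in unstimulated naive T cells, and the myeloid markers to 137 to 377 and 16.5 to 27.1 CPM. Their part in these differences was not tested.

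Unstimulated B and T cells differed more. In EAE mice 21 of 34 members were higher in B than in T cells (27% of all genes) and 2 lower (27% of all genes), with a median of 0.59. In naive mice 19 of 34 were higher (32.9% of all genes) and 6 lower (30.6% of all genes), with a median of 0.29. Of the members higher in B cells, Hspa9, the mitochondrial Hsp70, showed the widest gap. It measured 700, 674 and 734 CPM in B and 124, 130 and 132 CPM in T cells of EAE mice (2.38 ± 0.11, adjusted p = 3.48e-07, edgeR), and 595, 634 and 633 CPM in B and 112, 107 and 116 CPM in T cells of naive mice (2.46 ± 0.06, adjusted p = 1.25e-10, edgeR). Hspd1 was also higher in B cells (1.73 ± 0.14 and 1.77 ± 0.06), as were Hsp90ab1 (1.21 ± 0.14 and 1.18 ± 0.06), Hsp90aa1, Hspa4 and 7 of 8 ring genes in each state, Cct7 not being called and Cct4 losing its call in naive mice without T library 1 (adjusted p = 0.0937, edgeR). Bag3 went the other way, at 1.65, 1.21 and 1.06 CPM in B and 12.8, 11.8 and 13.1 CPM in T cells of EAE mice (-3.34 ± 0.24, adjusted p = 4.79e-06, edgeR) and by -2.63 ± 0.22 in naive mice. Hspa8 was lower in B cells too (-0.67 ± 0.13 and -0.22 ± 0.05), although in naive mice its mean TPM was 807 in B and 728 in T cells. Dnajb1 (-1.55 ± 0.09), Fkbp4 (-0.48 ± 0.08), Dnaja1 (-0.34 ± 0.05) and Hsph1 (-0.26 ± 0.07) were lower in B than in T cells of naive mice, of which Hsph1 lost its call with a length offset (adjusted p = 0.154, edgeR) and without B library 3 (adjusted p = 0.0501, edgeR). The gene tables of B and T cells were not the same (35498 and 35519 genes). Only genes in both were tested, but cell type and table cannot be told apart. In the unstimulated T cells the CD8 genes summed to 926 to 1096 CPM in naive and 19.5 to 26.2 CPM in EAE mice. The myeloid markers there summed to 16.5 to 27.1 and 137 to 377 CPM. The part of these transcripts was not tested.

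**Figure D5:**
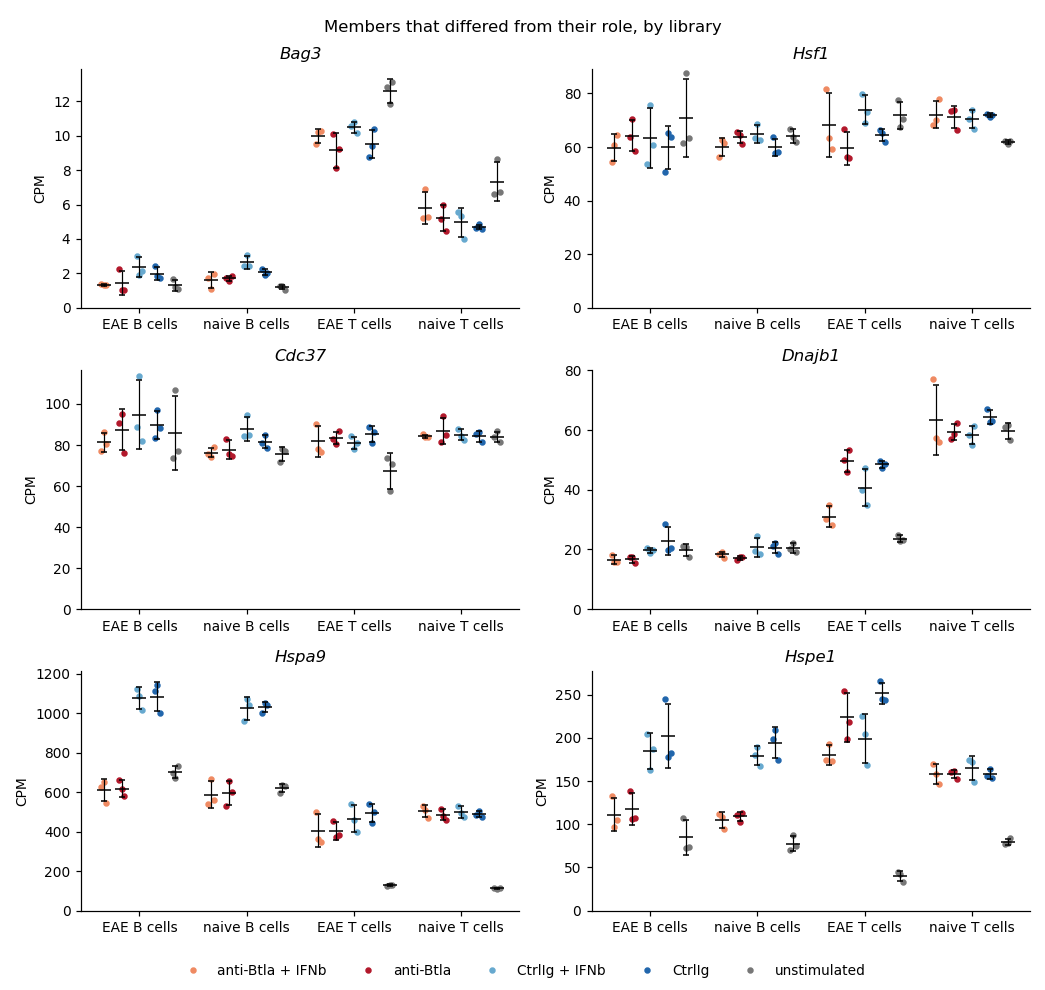
CPM in each library of 6 members that differed from their role in at least 1 comparison, by set and arm, with means and SD of 3 libraries as black bars. Bag3 lies at 1.02 to 3.09 CPM in B cells and at 4.01 to 13.1 CPM in T cells, and Hspa9 is higher in unstimulated B cells (595 to 734 CPM) than in unstimulated T cells (107 to 132 CPM).

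Per-length levels gave the order of the members within groups. Hsp90ab1 led in every B cell group and Hspa8 in every T cell group, followed by the other of these genes except in unstimulated naive T cells, where Cct6a (303 TPM) and Hsp90ab1 (297 TPM) were close. In unstimulated EAE T cells the mean TPM was 1346 for Hspa8 and 335 for Hsp90ab1. The lid and the chamber of the mitochondrial pair did not keep a fixed ratio. Hspe1 over Hspd1 in TPM was 0.820 to 1.11 in the means of the B cell groups, but in T cells it was 0.877 ± 0.0923 with CtrlIg and 1.39 ± 0.235 unstimulated in EAE cells, and 1.75 ± 0.0615 with CtrlIg and 2.92 ± 0.0485 unstimulated in naive cells (SD, n = 3 each). Hspa8 over Hspa9 was 3.39 to 5.16 in the B cell groups and 7.60 to 29.95 in the T cell groups, highest in unstimulated EAE T cells.

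The positions of several members limit what the counts can separate. Hspd1 and Hspe1 overlap with opposite strands, and so do exons of Tcp1, Cct6a, Cct7, Cct8, Trap1, Grpel1, Pfdn2, Pfdn4, Dnaja1 and Hspa1a with a neighbour. On the same strand Hspa14 overlaps Gm45902, and exons of Tcp1, Cct6a, Hspa8, Dnaja1 and Ahsa1 also overlap another gene. The strand setting of the counting is not stated in the sources used here. Of the 31-base words in their transcripts, 50.1% of those of Hspd1, 51.4% of Hsp90aa1 and 43.5% of Hspa8 also occur in other genes, mostly processed copies, of which the most similar ones reached at most 5.20, 15.3 and 13.5 CPM. Copies of Ptges3 (Ptges3-ps, up to 65.2 CPM) and Dnaja1 (Gm15542, up to 93.3 CPM) took a larger share against lowest levels of 79.6 and 208 CPM for these members. Gm45902, which holds 7.3% of the words of Hspa14, reached 26.5 CPM, against a lowest level of 26.3 CPM for Hspa14. Hspa1a and Hspa1b share 65.4% and 68% of their words with other genes, mostly with each other, so that the split of their few reads is uncertain.

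The wider chaperone system was described with 70 further genes, among them other prefoldin and J-domain genes, the Ruvbl helicases and the main chaperones of the endoplasmic reticulum, of which 67 were tested in B and 66 in T cells. With anti-Btla, 33 were lower (16.5% of all genes) and 1 higher (13.6% of all genes) in EAE B cells (median -0.30), and 37 lower (19.8%) and 2 higher (13.1%) in naive B cells (median -0.26). The called genes with the smallest p were Cacybp (-0.81 ± 0.07), the Hsp70 partner St13 (-0.55 ± 0.05) and the nascent chain factor Btf3 (-0.66 ± 0.07) in EAE cells and Cacybp (-0.76 ± 0.06), Hspa5, the Hsp70 of the endoplasmic reticulum (-0.69 ± 0.06), and Ruvbl2 (-1.0 ± 0.09) in naive cells, while Cdc37l1 was higher in both (0.30 ± 0.08 and 0.26 ± 0.06). Stimulation with CtrlIg beads raised 35 (21% of all genes) and lowered 4 (18.8%) in EAE B, raised 43 (22.7%) and lowered 5 (17.5%) in naive B, raised 42 (31.7%) and lowered 7 (31.3%) in EAE T and raised 32 (27.1%) and lowered 7 (23%) in naive T cells. In EAE T cells Ruvbl1 and Ruvbl2 rose by 2.77 ± 0.13 and 2.77 ± 0.12, and in naive T cells the mitochondrial protease Lonp1 (1.85 ± 0.07) and Hspa5 (1.49 ± 0.05) were among the smallest p, while Cdc37l1 fell in both (-0.73 ± 0.09 and -0.41 ± 0.05). The activation effect was higher in EAE than in naive T cells for 34 of them (20.8% of all genes), led by Hsp90b1, the Hsp90 of the endoplasmic reticulum (1.31 ± 0.10), and lower for 4 (17%). At rest, 8 were higher (18.6% of all genes) and 15 lower (17%) in EAE than in naive T cells. In B against T cells 28 were higher (27% of all genes) and 5 lower (27%) in EAE mice, and 28 higher (32.9%) and 14 lower (30.6%) in naive mice. EdgeR called 0 of them for IFNb in any set (0 in EAE B, 2 in naive B, 4 in EAE T and 6 in naive T cells under an unadjusted p of 0.05), for anti-Btla in T cells (6 in EAE and 2 in naive cells) and between unstimulated EAE and naive B cells (0).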

How the data were processed

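The authors made the deposited tables with Salmon, per the labels on build GRCm38, and used DESeq2; the versions, the library kit and the strand setting are not stated in the sources used here. Each deposited table gives per transcript an estimated count, a TPM value and an effective length. Here the estimated counts of the authors' tables were summed to genes by GENCODE M21, and the 2 runs of each of 7 T cell libraries were added. Transcripts without a gene (0.158 to 0.677% of counts) were left out. Sums were rounded to whole counts for the tests. CPM is the gene's counts as a share of its library's counts, scaled to a common total, and TPM was summed over the transcripts of a gene from the deposited TPM values.

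Genes were filtered with filterByExpr (minimum count 10) and tested with edgeR 4.0.16 (R 4.3.3, quasi-likelihood F-test, TMM) over 15 libraries of a set with the replicate number as a block, over 30 libraries for differences between sets, and over 6 libraries without the block for unstimulated EAE against naive and B against T cells. P-values were adjusted over all genes tested (Benjamini-Hochberg, threshold 0.05). The fits were tested on simulated data. The study's methods state a replicate term for its linear models, and a heatmap of the study numbers the mice 1 to 3 in both arms, which was taken as the source of the pairing. The labels do not say that equal numbers are the same mouse. Deviations from group means correlated above 0.1 in 29 of 30 same-numbered pairs in EAE B, 25 of 30 in naive B, 28 of 30 in EAE T and 29 of 30 in naive T cells. P-values measure only the spread between these libraries.

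The 36 members, their roles and the lists were chosen with earlier results of these data known. All members could be named; values per library are given for the gene with the smallest p of each role with anti-Btla in naive B cells, for the TRiC sum and for members that differed from their role, and at most 3 other chaperone genes per direction and comparison. Alternatives were DESeq2 1.42.0 and its size factors, no filter, an offset for transcript length, TPM ratios, fits with or without the block and leaving out each library. One marker of the cell type lists is not reported here.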

Additional observations from a re-analysis of the deposited data

Results flagged for a closer look

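The effect of CtrlIg beads against unstimulated cells differed between EAE and naive T cells for 30 members in edgeR's test of the difference itself (adjusted p below the threshold). On the log2 scale, EAE minus naive, the difference was 0.85 for Tcp1, 0.57 for Cct2, 0.73 for Cct3, 1.13 for Cct4, 0.78 for Cct5, 1.01 for Cct6a, 0.58 for Cct7, 0.99 for Cct8, 1.67 for Hspd1, 1.74 for Hspe1, 0.94 for Trap1, 0.77 for Hsp90aa1, 1.03 for Hsp90ab1, 0.47 for Hspa8, 0.98 for Hspa4, 1.04 for Hspa14, 1.08 for Hsph1, 0.45 for Dnaja1, 0.32 for Dnaja2, 0.98 for Dnajb1, 0.90 for Dnajc2, 1.05 for Ahsa1, 0.77 for Stip1, 0.39 for Cdc37, 0.73 for Ptges3, 1.61 for Fkbp4, 0.37 for Chordc1, 0.79 for Pfdn2, 0.86 for Pfdn4. It was -0.32 for Hsf1, whose call was lost without the replicate block, with a length offset and without 1 of 4 libraries. Dnaja2 and Pfdn4 also lost theirs without 1 library. With a length offset the difference was 0.04 for Dnaja2 (adjusted p = 0.866, edgeR) and 0.17 for Chordc1 (adjusted p = 0.368, edgeR). Dnaja2 was also lost without the filter or without the block, and Hspa8 in DESeq2's test (adjusted p = 0.0616, DESeq2). At rest, Hspe1 (-0.92) and Dnajb1 (-1.26) were also lower in EAE than in naive T cells, where the CD8 genes summed to 19.5 to 26.2 CPM in EAE and 926 to 1096 CPM in naive cells and the myeloid markers to 137 to 377 and 16.5 to 27.1 CPM. The part of these markers was not tested.

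In CPM, some members differed one way in every replicate pair of B cells and the other way in every pair of T cells, a contrast that was not tested. The share of all genes with such an order is not given here. The values below are the fitted log2 changes. With CtrlIg beads against unstimulated cells, Bag3 was at 0.74 in EAE B and -0.36 in EAE T cells and at 0.90 in naive B and -0.56 in naive T cells, and Hsf1 was at 0.01 in naive B and 0.28 in naive T cells. For Hsf1 the opposite order held only in the CPM pairs, and both fitted changes were above 0. With anti-Btla against CtrlIg in naive cells, Dnajc2 was at -0.47 in B and 0.06 in T cells and Chordc1 at -0.45 and 0.08. Neither T cell change was called. With IFNb in both arms, anti-Btla in naive cells gave -0.57 in B and 0.08 in T cells for Cct8, -0.96 and 0.02 for Hspd1, -0.81 and 0.08 for Hsp90ab1, -0.54 and 0.05 for Hspa4 and -0.57 and 0.07 for Ahsa1. None of these T cell changes was called. For IFNb alone in naive cells, Cct5 was at 0.01 in B and -0.06 in T cells and Pfdn4 at -0.13 and 0.17, and neither was called.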

How the results depend on the processing

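Of the members' results, called or not, leaving out 1 library at a time left the call status unchanged in 5653, moved 23 past the threshold and lost 78. Signs were compared only where a fit called the member, and 0 were reversed. Results that were never called, also those of comparisons with 0 calls, are among the unchanged here and below. With DESeq2's test 815 were kept, 3 gained and 3 lost, with no filter 803, 12 and 6, and with a length offset 789, 10 and 21. Counts of called members stayed within 1.5 times under the planned settings except as follows. Without a filter, anti-Btla called 1 member in EAE T cells (Hspd1) and, with IFNb, 3 (Cct3, Hspd1 and Hsph1), where edgeR with the filter called 0. Between unstimulated EAE and naive T cells the count of 10 became 5 to 12 when 1 library was left out, with 5 without naive T library 2 and 6 without naive T library 3. The sign turned with ratios of mean TPM, an alternative chosen after seeing the data, for activation of Hspa14 in naive B (-0.12) and EAE B cells (-0.08), of Grpel1 in EAE B cells (-0.09) and for Hspa8 between B and T cells of naive mice (0.15), and with the length offset for Cdc37 between B and T cells of naive mice (0.46). The cause was not tested.

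Without the replicate block, anti-Btla called 29 members in EAE B and 30 in naive B cells and, with IFNb, 27 and 30. Activation called 27 in EAE B, 31 in naive B, 32 in EAE T and 31 in naive T cells, and the difference of activation effects in T cells 28. With the block, unstimulated EAE against naive T cells gave 8, and B against T cells 21 in EAE and 25 in naive mice. The block moved no count by more than 1.5 times. With mice 2 and 3 alone in EAE B cells, chosen after seeing the data, anti-Btla called 28 members, with IFNb 25, and activation 28. Depth limits Hspb1, Hspa1a, Hspa1b and, in B cells, Bag3. With 3 libraries a group, culture of the unstimulated cells and any pooling of mice not given, the p-values cannot say how far the results hold in other mice. The smallest EAE B anti-Btla library held 6.7 M (mega) counts.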
